A study of Mus musculus with 7 samples.

Results

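The 34 genes described here encode enzymes of cholesterol synthesis, enzymes of fatty acid synthesis, elongation and desaturation, and the proteins that control both pathways. They were chosen by name for these roles with earlier results of these data known. The choice was out of 18193 genes with an array probe set that carries 1 gene symbol. Of the 34, 33 had such a probe set and 30 reached an intensity of 82 in 2 or more of the 7 arrays, the level required for testing. All samples were sorted thymic T-lineage cells. The mice had a C57BL/6J background and an age of 4 to 6 weeks, and each sample was RNA of pooled mice measured on 1 Affymetrix mouse array. Luxoid stage 1 NKT cells (3 arrays) came from PLZF-deficient Luxoid mice that also carried a Valpha14 T cell receptor transgene. Stage 1 NKT cells (2 arrays) came from Valpha14 transgenic mice with intact PLZF. CD4SP thymocytes (2 arrays), which carry CD4 and lack CD8, came from wild-type mice without the transgene.

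NKT cells respond to lipid antigens held by CD1d, PLZF (gene Zbtb16) is the transcription factor that directs their effector programme, and Luxoid is a mutation of that gene. Stage 1 was defined by the submitters as tetramer-binding cells with low CD24 and neither CD44 nor NK1.1. The Valpha14 transgene raises the share of NKT cells in the thymus and was carried by both NKT groups, so a comparison with CD4SP sets cell type and transgene together and these cannot be told apart. In 1 characteristic the CD4SP samples carry the NKT sort, whereas their title, source and description say CD4SP.

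The arrays were set against markers of the labelled cells. Zbtb16 transcript was at 1857, 2774 and 2645 in Luxoid cells and at 2751 and 3488 in stage 1 NKT cells, against 87.3 and 61.8 in CD4SP cells, and the transcript does not check the loss of the protein. Cd4 was at 2164, 2360 and 2164 in Luxoid cells, 1888 and 2232 in stage 1 NKT cells, and 5824 and 6754 in CD4SP cells. The 5 T cell markers measured were over 82 on at least 1 array, and their summed intensity was 17400 to 20270 in Luxoid, 18422 to 19162 in stage 1 NKT and 21414 to 21730 in CD4SP cells. Cd24a, low by the NKT sort, was at 26.0, 14.9 and 57.1 in Luxoid cells, 14.2 and 14.1 in stage 1 NKT cells, and 246 and 239 in CD4SP cells. Cd44, absent by that sort, overlapped between the groups (248, 181 and 186 in Luxoid, 310 and 180 in stage 1 NKT, 233 and 206 in CD4SP cells). Zbtb7b, the factor of the CD4 lineage, was at 356, 558 and 420 in Luxoid cells, 497 and 601 in stage 1 NKT cells, and 803 and 918 in CD4SP cells. Of the CD8 chains, which CD4SP cells lack by definition, Cd8a was at 144, 184 and 152 in Luxoid cells, 82.3 and 93.6 in stage 1 NKT cells, and 135 and 148 in CD4SP cells. Cd8b1 was at 83.4, 43.8 and 123 in Luxoid cells, 61.9 and 67.6 in stage 1 NKT cells, and 223 and 268 in CD4SP cells, so the CD4SP arrays were the highest. Sex-linked transcripts differed between the pools of each group. Y-linked Kdm5d was at 8.28, 1745 and 758 in Luxoid arrays 1 to 3, at 6.49 and 1120 in stage 1 NKT arrays 1 and 2, and at 11.7 and 2331 in CD4SP arrays 1 and 2. Xist was at 36.1 in Luxoid array 2 and at 29.0 in CD4SP array 2, against 3888 to 6723 on the other arrays. Correlation of log2 values over all 45037 probe sets was 0.984 to 0.992 within a group and 0.981 to 0.992 between the NKT groups. Between either NKT group and CD4SP it was 0.968 to 0.979. Replicates were biological per the labels. In these bulk samples a lower share of cells that express a gene and less of its RNA per cell cannot be told apart.

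Cholesterol is built from acetyl-CoA through mevalonate and isoprenoids to squalene, which is closed to lanosterol and trimmed in several steps to cholesterol. Fatty acids are built from the same acetyl-CoA by acetyl-CoA carboxylase and fatty acid synthase, then lengthened and desaturated. When sterols run low, SCAP carries the SREBP transcription factors to the Golgi for activation, INSIG proteins hold SCAP back when sterols are plentiful, and dividing T cells draw on both pathways for membranes.

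SREBP proteins bind sterol regulatory elements in the promoters of these genes, commonly beside a CCAAT box bound by NF-Y. Upstream sequences are shown for 4 sterol genes that were higher in both NKT groups than in CD4SP cells (Idi1, Cyp51, Lss and Sc5d). Fasn and Elovl5, which moved in opposite directions between stage 1 NKT and CD4SP cells, are also shown. Hmgcs1 is included as the 1 member with a sterol element match among the 27 whose promoters were searched. Each sequence runs 5′ to 3′ over the 200 bases before the gene start, on the strand of the gene, from RefSeq on GRCm38.p6. Capitals mark CCAAT on either strand (its reverse complement is ATTGG) and, in Hmgcs1 alone, the element TCACNCCAC.
Idi1, chr13:8885406-8885605, plus strand: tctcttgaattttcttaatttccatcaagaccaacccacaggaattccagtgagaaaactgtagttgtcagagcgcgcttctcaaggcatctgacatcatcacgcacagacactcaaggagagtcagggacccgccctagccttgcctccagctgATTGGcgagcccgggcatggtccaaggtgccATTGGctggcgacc
Cyp51, chr5:4104698-4104897, minus strand: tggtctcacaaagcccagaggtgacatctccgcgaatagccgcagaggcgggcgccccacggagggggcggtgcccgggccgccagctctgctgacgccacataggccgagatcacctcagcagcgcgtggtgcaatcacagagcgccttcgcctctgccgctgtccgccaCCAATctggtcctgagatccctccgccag
Lss, chr10:76531405-76531604, plus strand: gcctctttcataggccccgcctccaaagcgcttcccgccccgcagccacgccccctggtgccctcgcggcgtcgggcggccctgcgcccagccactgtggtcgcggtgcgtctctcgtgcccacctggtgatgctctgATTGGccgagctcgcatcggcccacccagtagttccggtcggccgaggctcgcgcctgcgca
Sc5d, chr9:42264301-42264500, minus strand: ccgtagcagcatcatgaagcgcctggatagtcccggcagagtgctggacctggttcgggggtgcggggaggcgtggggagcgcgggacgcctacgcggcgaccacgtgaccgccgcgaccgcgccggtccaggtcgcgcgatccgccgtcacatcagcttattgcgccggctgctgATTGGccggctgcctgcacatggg
Fasn, chr11:120824548-120824747, minus strand: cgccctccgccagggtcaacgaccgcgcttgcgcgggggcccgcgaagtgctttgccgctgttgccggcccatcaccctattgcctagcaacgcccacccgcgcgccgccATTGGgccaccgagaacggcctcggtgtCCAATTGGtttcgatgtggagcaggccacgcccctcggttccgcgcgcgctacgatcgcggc
Elovl5, chr9:77917165-77917364, plus strand: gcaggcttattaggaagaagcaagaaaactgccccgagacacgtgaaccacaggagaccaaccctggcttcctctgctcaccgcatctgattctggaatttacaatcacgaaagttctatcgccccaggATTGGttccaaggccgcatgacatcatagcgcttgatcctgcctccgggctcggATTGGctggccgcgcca
Hmgcs1, chr13:119690151-119690350, plus strand: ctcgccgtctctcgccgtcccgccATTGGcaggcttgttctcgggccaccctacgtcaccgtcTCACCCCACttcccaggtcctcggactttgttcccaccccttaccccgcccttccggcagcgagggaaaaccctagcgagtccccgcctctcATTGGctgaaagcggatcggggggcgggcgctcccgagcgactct

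RefSeq promoters of 300 bases (250 before the start and 50 after it) were held for 27 of the 34 genes, 35 promoters in all. None was held for Fdps, Fdft1, Sqle, Stard4, Scd1, Scd2 and Fads1, so these were not searched. CCAAT on either strand stood in 22 of the 27 genes and in 65.7% of their 35 promoters, against 37.4% of all 32851 promoters of that length. In Fasn a CCAAT on each strand overlaps in CCAATTGG. The E-box CACGTG, which reads the same on both strands, stood in 20.0% of the member promoters and 7.15% of all promoters. Overlapping promoters of Scap hold the same E-box. By gene, the E-box stood in 6 of the 27, against 8.09% of all genes. TCACNCCAC stood in 2.86% of the member promoters, which is the 1 of Hmgcs1 at 137 bases before the start, and in 1.24% of all. These are letter matches only. Idi1 and Elovl5 each held 2 CCAAT matches in the stretch shown.

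**Figure D1:**
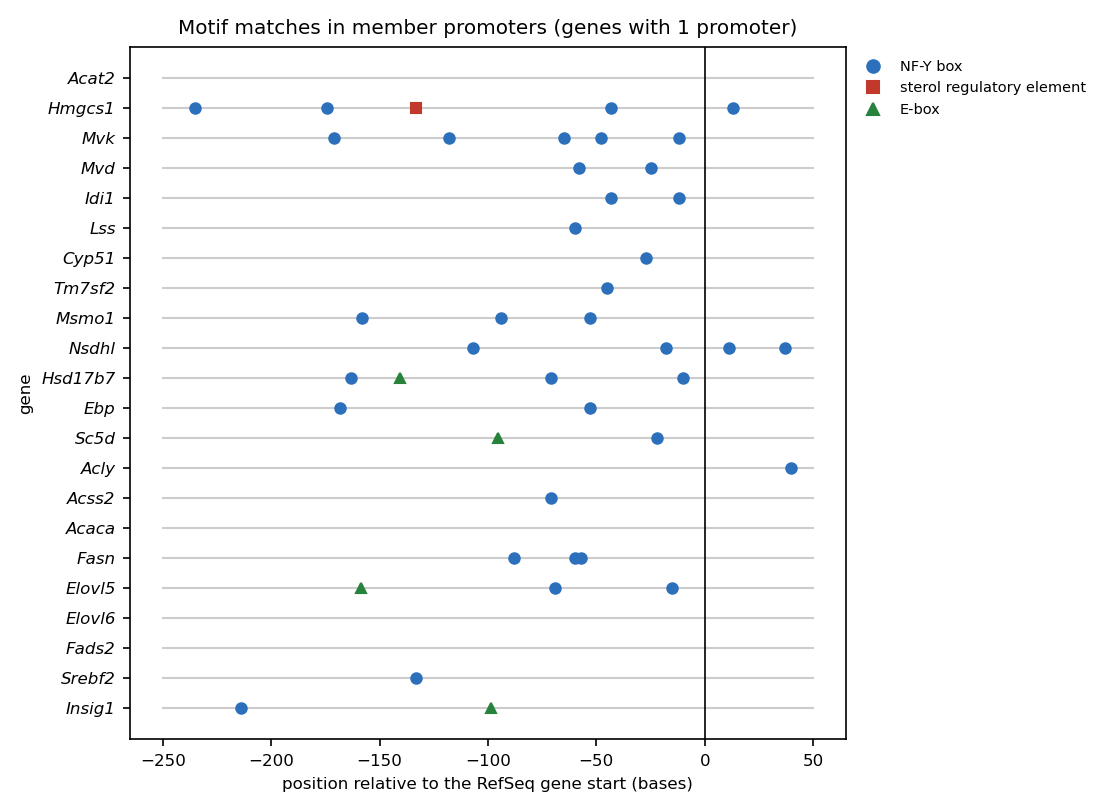
Positions of motif matches on either strand in the RefSeq promoters of the 22 member genes with 1 promoter, in bases from the gene start (black line), with circles for CCAAT (NF-Y box), squares for TCACNCCAC (sterol regulatory element) and triangles for CACGTG (E-box). Most matches are CCAAT before the start, and the square stands in Hmgcs1.

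Stage 1 NKT cells of both kinds carried more transcript of a subset of these genes than CD4SP thymocytes, and the sterol genes Idi1, Cyp51, Lss, Sc5d and Stard4 together with Fasn were called higher in both. Stage 1 NKT cells exceeded CD4SP cells in 8 of 30 tested members and were lower in 1 (limma, Benjamini-Hochberg adjusted p under 0.05), where 14.9% of all 10874 tested genes passed, 10.8% higher and 4.08% lower. Luxoid cells exceeded CD4SP cells in 9 of 30 members and were lower in 1, where 16.8% of all tested genes passed, 11.3% higher and 5.51% lower. Between Luxoid and stage 1 NKT cells 0 of 30 members passed (limma, 6 at an unadjusted p under 0.05), where 1.55% of all tested genes did, 0.901% higher and 0.653% lower in Luxoid cells. The median log2 difference of the 30 members was 0.40 for stage 1 NKT minus CD4SP (0.064 over all tested genes), 0.25 for Luxoid minus CD4SP (0.021 over all) and -0.0021 for Luxoid minus stage 1 NKT (-0.030 over all). With 1 array omitted, the 9 members called between stage 1 NKT and CD4SP cells became 2 without stage 1 NKT array 1, without stage 1 NKT array 2 or without CD4SP array 2, and 5 without CD4SP array 1. The 10 called between Luxoid and CD4SP cells became 4 without Luxoid array 1 or CD4SP array 2, 5 without either stage 1 NKT array and 6 without Luxoid array 3. These comparisons share arrays, so their values are set side by side and not counted as independent.

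Members were also counted where the arrays of both groups did not overlap. All stage 1 NKT arrays lay above all CD4SP arrays in 19 of 30 members and below in 2, against 36.6% and 23.6% of all tested genes. All Luxoid arrays lay above all CD4SP arrays in 14 members and below in 2, against 25.4% and 20.6% of all. All Luxoid arrays lay above both stage 1 NKT arrays in 4 members and below in 6, against 10.1% and 16.6% of all.

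**Figure D2:**
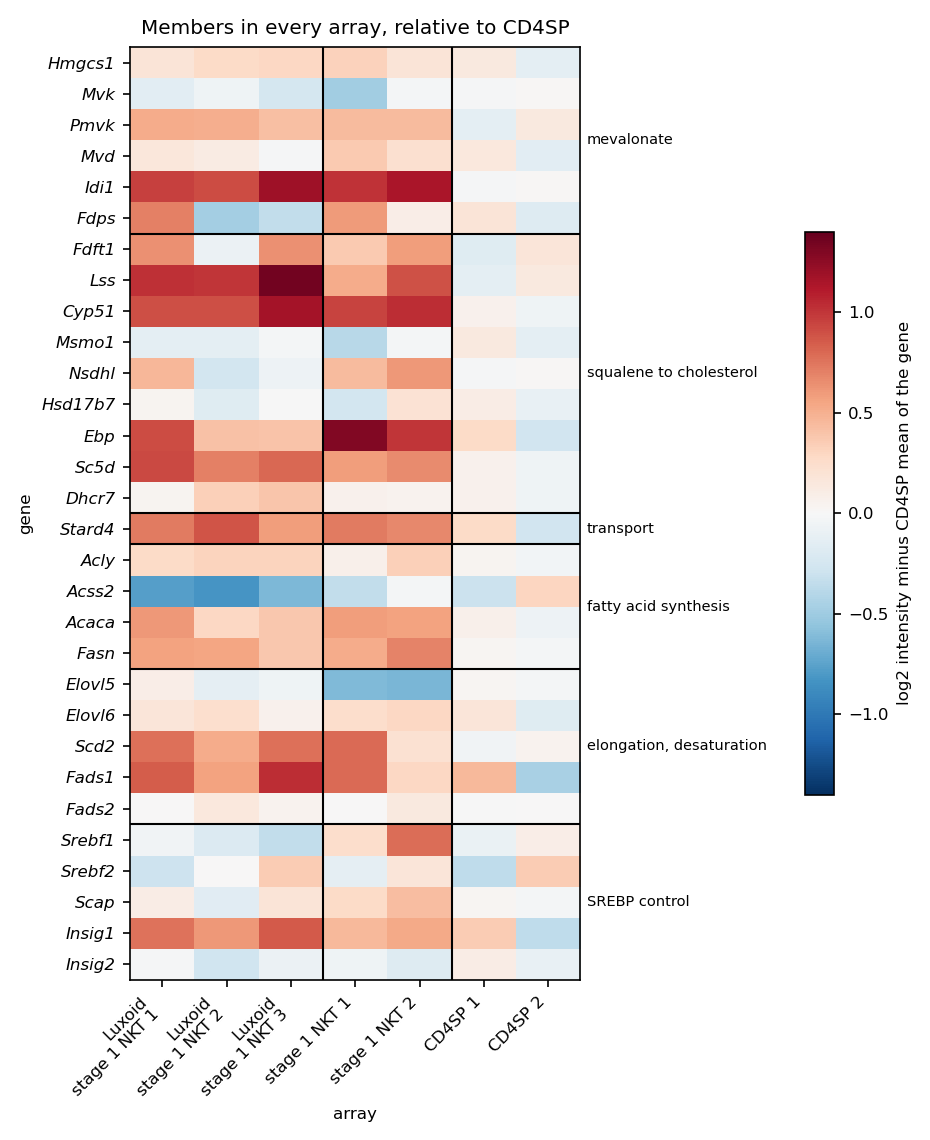
Log2 intensity of each of the 30 tested members in each of the 7 arrays, minus the CD4SP mean of that gene, with genes grouped by role and colours running from blue (lower) to red (higher). Idi1, Lss, Cyp51, Sc5d and Stard4 are red in all 5 NKT arrays, and Elovl5 is deepest blue in the 2 stage 1 NKT arrays.

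The mevalonate enzymes turn acetyl-CoA into isoprenoid units. Of 6 tested members, 1 rose in stage 1 NKT cells and 2 rose in Luxoid cells relative to CD4SP cells. Of all tested genes, 10.8% and 11.3% rose in these comparisons. Idi1, the isomerase that balances the isoprenoid building blocks, was at 623, 600 and 730 in Luxoid cells, 644 and 707 in stage 1 NKT cells, and 316 and 324 in CD4SP cells. Every NKT array lay above both CD4SP arrays, and the NKT groups overlapped each other. The log2 difference was 1.08 ± 0.16 (SE) for stage 1 NKT minus CD4SP, a 2.11-fold level (limma adjusted p = 0.0027). For Luxoid minus CD4SP it was 1.02 ± 0.14, a 2.03-fold level (limma adjusted p = 0.00169), and a further Idi1 probe set differed by 0.93 and 0.71 in these comparisons. Idi1 passed in both comparisons under all 16 alternative settings.

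Pmvk, which adds the further phosphate to phosphomevalonate, was at 684, 680 and 638 in Luxoid cells, 651 on both stage 1 NKT arrays, and 433 and 525 in CD4SP cells. All 5 NKT arrays lay above CD4SP. The difference of Luxoid minus CD4SP was 0.48 ± 0.14 (limma adjusted p = 0.0456) and stage 1 NKT minus CD4SP was 0.45 ± 0.15 (0.0863). No subset of 6 arrays kept the Pmvk call. The adjusted p was 0.0984, 0.0841 and 0.0746 with Luxoid array 1, 2 or 3 omitted, 0.0754 and 0.0757 with stage 1 NKT array 1 or 2 omitted, and 0.262 and 0.0706 with CD4SP array 1 or 2 omitted, and it was 0.0520 to 0.0980 in 4 other settings. Hmgcs1, which makes HMG-CoA, was at 1748, 1866 and 1892 in Luxoid cells, 1929 and 1747 in stage 1 NKT cells, and 1697 and 1410 in CD4SP cells. Both NKT groups lay above CD4SP, yet the differences of 0.25 and 0.25 did not pass (0.335 for stage 1 NKT and 0.291 for Luxoid cells). Further Hmgcs1 probe sets differed from CD4SP by 0.63, 0.45 and 0.26 in stage 1 NKT cells. In Luxoid cells they differed by 0.62, 0.61 and 0.24, and none passed when probe sets were fitted singly. Mvk, the mevalonate kinase, differed by -0.25 in stage 1 NKT and -0.15 in Luxoid cells relative to CD4SP, and Mvd, the decarboxylase, by 0.29 and 0.089, with no call. Fdps, which makes farnesyl diphosphate, was at 280, 123 and 136 in Luxoid cells, 260 and 183 in stage 1 NKT cells, and 195 and 152 in CD4SP cells. Array 1 was the highest in every group, and the groups overlapped.

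From squalene to cholesterol, 9 members were tested. Relative to CD4SP cells, 4 rose in stage 1 NKT cells (Lss, Cyp51, Ebp and Sc5d) and 3 in Luxoid cells (Lss, Cyp51 and Sc5d). None fell, and the median differences were 0.52 and 0.40. Over all tested genes, 10.8% and 11.3% rose, and 4.08% and 5.51% fell. Cyp51, which removes the 14-alpha methyl group of lanosterol, was at 481, 481 and 577 in Luxoid cells, 495 and 528 in stage 1 NKT cells, and 268 and 247 in CD4SP cells. The 5 NKT arrays lay well above CD4SP and overlapped between the NKT groups. The log2 difference was 0.99 ± 0.16 for stage 1 NKT minus CD4SP (1.99-fold, limma adjusted p = 0.00415) and 0.99 ± 0.14 for Luxoid minus CD4SP (1.99-fold, 0.00202). Both calls held in all 16 alternative settings. Of 2 further Cyp51 probe sets, 1 differed by 0.96 and 0.98 and the other by 0.13 and -0.21.

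Lss, which closes the sterol ring system, was at 770, 759 and 971 in Luxoid cells, 544 and 705 in stage 1 NKT cells, and 346 and 417 in CD4SP cells. The 3 groups did not overlap, in that order. Luxoid minus CD4SP was 1.12 ± 0.18 (2.18-fold, limma adjusted p = 0.00378) and passed in all 16 alternative settings. Stage 1 NKT minus CD4SP was 0.71 ± 0.20 (1.63-fold, 0.0475). Omitting Luxoid array 1 (0.0596), stage 1 NKT array 1 (0.0781) or 2 (0.229), or CD4SP array 1 (0.222) or 2 (0.101) ended this call, as did 3 other settings (0.0628 to 0.128). Lss was 0.42 ± 0.18 higher in Luxoid than in stage 1 NKT cells, which did not pass (0.428).

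Sc5d, the lathosterol desaturase, was at 549, 471 and 505 in Luxoid cells, 433 and 456 in stage 1 NKT cells, and 301 and 277 in CD4SP cells. Its 3 groups also stood apart in this order. Sc5d was higher in Luxoid than in CD4SP cells by 0.81 ± 0.13 (1.76-fold, limma adjusted p = 0.00422), a call that 1 of 16 settings ended, the mean over all Sc5d probe sets (0.329). It was higher in stage 1 NKT than in CD4SP cells by 0.62 ± 0.15 (1.54-fold, 0.0246). That mean (0.351) ended this call, and so did omitting stage 1 NKT array 1 (0.105) or 2 (0.122) or CD4SP array 1 (0.0763) or 2 (0.134). The difference of 0.19 ± 0.13 between Luxoid and stage 1 NKT cells did not pass (0.663).

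Ebp, the sterol isomerase, was at 564, 399 and 397 in Luxoid cells, 739 and 598 in stage 1 NKT cells, and 362 and 249 in CD4SP cells. Stage 1 NKT arrays were the highest, and array 1 exceeded the others within each group. Ebp lies on the X chromosome, and array 1 is also the array with the lowest Kdm5d in each group. The cause of the higher Ebp values on array 1 was not tested. Stage 1 NKT minus CD4SP was 1.15 ± 0.25 (2.22-fold, limma adjusted p = 0.0163), and 1.12 (0.00193) with the level of Y-linked genes as a covariate. Omitting stage 1 NKT array 1 (0.125) or 2 (0.0553) or CD4SP array 2 (0.118) ended the call. The Luxoid difference from CD4SP, 0.58 ± 0.22, did not pass (0.126) but did with the Y-linked covariate (0.0123) and with a replicate block (0.0155). Between Luxoid and stage 1 NKT cells the difference was -0.57 ± 0.22 (0.370).

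The other squalene-to-cholesterol members did not pass in any comparison of all 7 arrays. Fdft1, the squalene synthase, was at 488, 295 and 488 in Luxoid cells, 404 and 469 in stage 1 NKT cells, and 280 and 352 in CD4SP cells. Luxoid array 2 was the lowest of its group, and omitting it turned the Luxoid difference of 0.40 from CD4SP into a call (0.64, limma adjusted p = 0.0383). Nsdhl, which removes the 4-methyl groups with Msmo1 and Hsd17b7, was at 117, 71.2 and 80.9 in Luxoid cells, 116 and 130 in stage 1 NKT cells, and 84.3 and 86.0 in CD4SP cells, so only the stage 1 NKT arrays lay above CD4SP throughout. Msmo1 lay between 92.1 and 133 and Hsd17b7 between 180 and 247 over the 7 arrays, with overlapping groups. The Msmo1 probe set used differed by -0.21 for stage 1 NKT minus CD4SP and by 0.11 for Luxoid minus stage 1 NKT. A further Msmo1 probe set, at 36.9 to 180, differed by 0.40 ± 0.60 and -0.76 ± 0.54, opposite in sign. Dhcr7, which makes cholesterol from its direct precursor, was at 963, 1178 and 1222 in Luxoid cells, 972 and 964 in stage 1 NKT cells, and 972 and 898 in CD4SP cells. For Dhcr7 the difference between stage 1 NKT and CD4SP cells was 0.051 ± 0.16, with a 95% interval of -0.32 to 0.42.

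At the testing threshold, Msmo1 reached 82 on all 7 arrays and Nsdhl on 5. Just outside it, Sqle, the squalene epoxidase, was at 80.7, 70.9 and 79.3 in Luxoid cells, 61.4 and 48.8 in stage 1 NKT cells, and 41.5 and 25.2 in CD4SP cells. Tm7sf2, a sterol reductase, lay between 42.1 and 54.0, and Scd1, a stearoyl-CoA desaturase, between 10.4 and 14.3. These 3 were not tested, and Acat2 had no probe set used here.

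**Figure D3:**
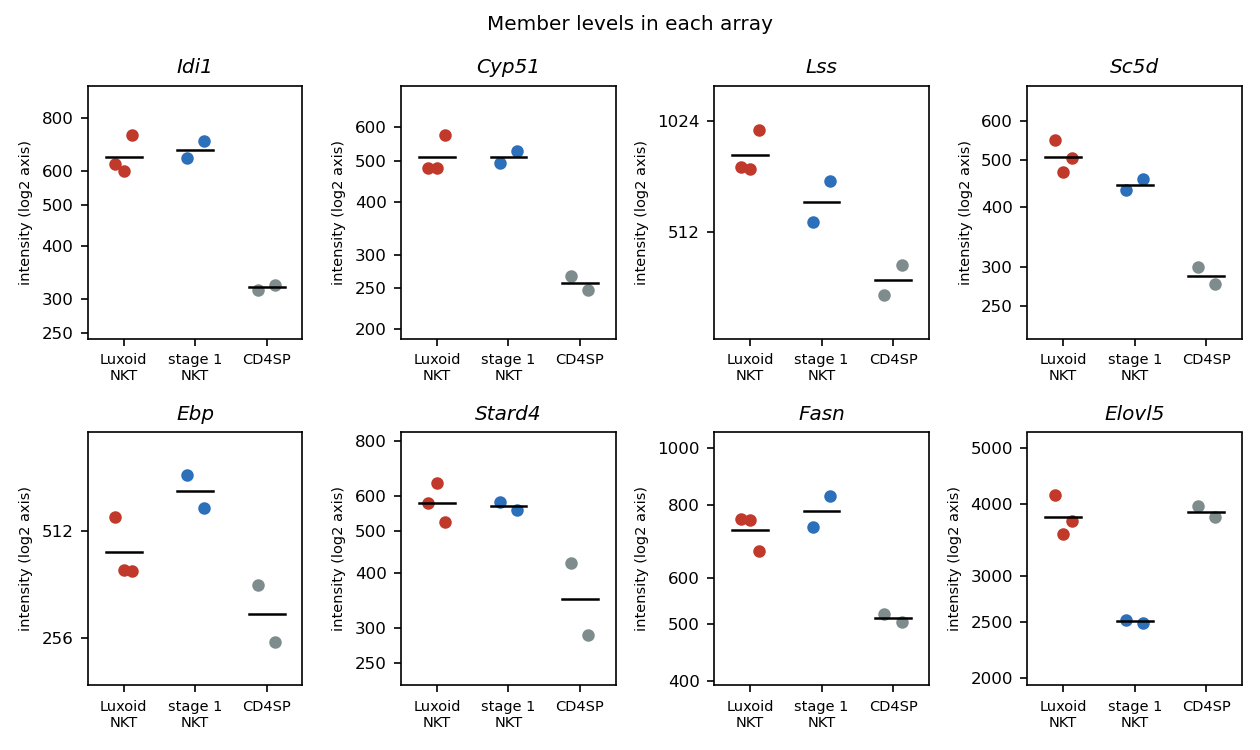
Intensity on a log2 axis of 8 members in each array (points) with the geometric mean of each group (line), for Luxoid stage 1 NKT, stage 1 NKT and CD4SP cells. The 5 NKT points lie above both CD4SP points for the first 7 genes, and for Elovl5 the stage 1 NKT points at 2519 and 2493 lie below the other groups.

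Stard4, which carries cholesterol between membranes, was at 577, 643 and 524 in Luxoid cells, 580 and 557 in stage 1 NKT cells, and 421 and 290 in CD4SP cells. All NKT arrays lay above CD4SP. The differences were 0.70 ± 0.20 for stage 1 NKT (1.63-fold, limma adjusted p = 0.0493) and 0.73 ± 0.18 for Luxoid cells (1.66-fold, 0.0283). For the Luxoid call, omitting Luxoid array 1 (0.0583) or 2 (0.0578), stage 1 NKT array 1 (0.0523) or 2 (0.0529), or CD4SP array 2 (0.210) ended it, as did 2 other settings (0.0531 and 0.149). For the stage 1 NKT call, omitting Luxoid array 1 (0.0664) or 3 (0.0600), stage 1 NKT array 1 (0.210) or 2 (0.150), or CD4SP array 2 (0.266) did so, as did 4 other settings (0.0612 to 0.248). Another 2 Stard4 probe sets differed from CD4SP by 0.80 and -0.00046 in Luxoid cells and by 0.44 and 0.20 in stage 1 NKT cells.

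Of the 4 fatty acid synthesis members, Fasn rose in both NKT groups and Acaca in stage 1 NKT cells, each relative to CD4SP. Acss2 fell in Luxoid relative to CD4SP cells. Over all tested genes, 10.8% rose in stage 1 NKT cells, and 11.3% rose and 5.51% fell in Luxoid cells. Fasn, the fatty acid synthase, was at 758, 753 and 667 in Luxoid cells, 732 and 830 in stage 1 NKT cells, and 521 and 504 in CD4SP cells. The NKT groups overlapped and both lay above CD4SP. Fasn was higher than in CD4SP cells by 0.50 ± 0.14 in Luxoid cells (1.41-fold, limma adjusted p = 0.0384) and by 0.60 ± 0.15 in stage 1 NKT cells (1.52-fold, 0.0289). The Luxoid call ended with Luxoid array 1 (0.0905) or 2 (0.0767), stage 1 NKT array 1 (0.0568) or 2 (0.0572), or CD4SP array 1 (0.136) or 2 (0.188) omitted, with a further quantile normalization (0.0819) and in a fit of the 2 groups alone (0.0575). The stage 1 NKT call ended with stage 1 NKT array 1 (0.0828) or 2 (0.150) or CD4SP array 1 (0.104) or 2 (0.133) omitted and with that normalization (0.0657).

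Acaca, the acetyl-CoA carboxylase that starts the pathway, was at 465, 373 and 395 in Luxoid cells, 458 and 452 in stage 1 NKT cells, and 321 and 289 in CD4SP cells. All NKT arrays lay above CD4SP. Acaca was higher than in CD4SP cells by 0.58 ± 0.16 in stage 1 NKT cells (1.49-fold, limma adjusted p = 0.0441), and the difference of 0.42 ± 0.15 in Luxoid cells did not pass (0.0854). That Luxoid difference passed with the mean of all Acaca probe sets (0.71, 0.0122) and with the Y-linked covariate (0.44, 0.0396). A further Acaca probe set differed by 1.31 for stage 1 NKT and 0.99 for Luxoid cells. The call ended with Luxoid array 3 (0.0594), stage 1 NKT array 1 (0.184) or 2 (0.146), or CD4SP array 1 (0.106) or 2 (0.207) omitted, and in 3 other settings (0.0519 to 0.0790). Acly, which makes acetyl-CoA from citrate, was at 3197, 3307 and 3294 in Luxoid cells, 2797 and 3357 in stage 1 NKT cells, and 2724 and 2591 in CD4SP cells. Its NKT arrays lay above CD4SP, with differences of 0.30 (0.186) for Luxoid and 0.21 (0.403) for stage 1 NKT cells that did not pass. Further Acly probe sets differed by 0.47, 0.48 and 0.039 for Luxoid and by 0.35, 0.39 and 0.18 for stage 1 NKT cells. None of them passed when probe sets were fitted singly.

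Acss2, which makes acetyl-CoA from acetate, was at 600, 581 and 661 in Luxoid cells, 809 and 1008 in stage 1 NKT cells, and 835 and 1262 in CD4SP cells. Luxoid cells were the lowest group and overlapped with neither of the others. The log2 difference of Luxoid minus CD4SP was -0.74 ± 0.20, a level 1.67-fold lower in Luxoid cells (limma adjusted p = 0.0351). Relative to stage 1 NKT cells it was -0.56 ± 0.20 and did not pass (0.317). The call against CD4SP ended with Luxoid array 1 (0.0752), 2 (0.0658) or 3 (0.0620), stage 1 NKT array 1 (0.0516) or 2 (0.0521), or CD4SP array 2 (0.257) omitted, and in 2 other settings (0.0523 and 0.130). Another 2 Acss2 probe sets differed by -0.22 and -0.042 for Luxoid minus CD4SP.

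Of the 5 tested elongases and desaturases, 1 fell in stage 1 NKT cells (Elovl5) and 1 rose in Luxoid cells (Scd2), each relative to CD4SP. Over all tested genes, 4.08% fell in stage 1 NKT cells and 11.3% rose in Luxoid cells. Elovl5, which lengthens polyunsaturated fatty acids, was at 4140, 3549 and 3730 in Luxoid cells, 2519 and 2493 in stage 1 NKT cells, and 3960 and 3792 in CD4SP cells. The stage 1 NKT arrays were the lowest, and Luxoid and CD4SP arrays overlapped. Stage 1 NKT minus CD4SP was -0.63 ± 0.15, a level 1.55-fold lower in stage 1 NKT cells (limma adjusted p = 0.0219). Omitting stage 1 NKT array 1 (0.111) or 2 (0.103) or CD4SP array 1 (0.108) or 2 (0.0892) ended the call. Elovl5 was 0.60 ± 0.13 higher in Luxoid than in stage 1 NKT cells, which had the smallest adjusted p of any member in that comparison, 0.0778, and passed only when the prior variance followed the mean level (0.0166) out of 16 settings. A further Elovl5 probe set differed by -0.74 for stage 1 NKT minus CD4SP and by 0.74 for Luxoid minus stage 1 NKT.

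Scd2, a stearoyl-CoA desaturase, was at 3215, 2697 and 3212 in Luxoid cells, 3278 and 2196 in stage 1 NKT cells, and 1820 and 1957 in CD4SP cells. All NKT arrays lay above CD4SP. Scd2 was higher than in CD4SP cells by 0.68 ± 0.19 in Luxoid cells (1.61-fold, limma adjusted p = 0.0408), and the difference of 0.51 ± 0.21 in stage 1 NKT cells did not pass (0.145). The Luxoid call ended with Luxoid array 1 (0.0929) or 3 (0.104) or CD4SP array 1 (0.195) or 2 (0.154) omitted, with no intensity filter (0.0540) and with a replicate block (0.0507). The stage 1 NKT difference passed with the mean of all Scd2 probe sets (0.61, 0.0343). Fads1, a front-end desaturase, was at 677, 556 and 767 in Luxoid cells, 650 and 459 in stage 1 NKT cells, and 516 and 273 in CD4SP cells. Its Luxoid arrays lay above CD4SP by 0.82 ± 0.28, which did not pass (0.0869), and the 2 CD4SP arrays lay far apart. The Fads1 difference was 1.28 and passed (0.0297) with CD4SP array 1 omitted, and was 0.36 with CD4SP array 2 omitted. It also passed with the Y-linked covariate (0.0293) and with a replicate block (0.0342). Elovl6, an elongase of saturated fatty acids, lay between 121 and 167 and Fads2, the partner desaturase, between 123 and 137, with no call.

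Among the 5 SREBP control genes, Insig1 alone passed, for Luxoid minus CD4SP, where 16.8% of all tested genes passed. Insig1, which retains SCAP in the endoplasmic reticulum, was at 394, 355 and 422 in Luxoid cells, 320 and 336 in stage 1 NKT cells, and 299 and 182 in CD4SP cells. The groups did not overlap, in that order. Insig1 was higher than in CD4SP cells by 0.74 ± 0.21 in Luxoid cells (1.67-fold, limma adjusted p = 0.0428), and the difference of 0.49 ± 0.23 in stage 1 NKT cells did not pass (0.195). The Luxoid call ended with Luxoid array 1 (0.0857) or 3 (0.112), stage 1 NKT array 1 (0.0742) or 2 (0.0749) or CD4SP array 2 (0.281) omitted, with no intensity filter (0.0577), in a fit of the 2 groups alone (0.0752) and with a replicate block (0.0580). The stage 1 NKT difference passed without CD4SP array 1 (0.85, 0.0429).

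Srebf1, the SREBP that mainly drives fatty acid genes, was at 264, 238 and 214 in Luxoid cells, 322 and 470 in stage 1 NKT cells, and 255 and 292 in CD4SP cells. Stage 1 NKT arrays were the highest. The difference of Luxoid minus stage 1 NKT was -0.71 ± 0.19, the largest difference of any member in that comparison, with a 95% interval of -1.14 to -0.28, and did not pass (limma adjusted p = 0.146, and 0.0960 to 0.672 over 16 settings). Srebf2, the SREBP that mainly drives sterol genes, was at 342, 419 and 533 in Luxoid cells, 382 and 469 in stage 1 NKT cells, and 326 and 535 in CD4SP cells. All 3 groups overlapped, with differences from 0.0043 to 0.024 and standard errors of 0.25 to 0.28. For stage 1 NKT minus CD4SP the 95% interval was -0.61 to 0.65. A further Srebf2 probe set differed from CD4SP by -0.25 in stage 1 NKT and -0.34 in Luxoid cells, with no call. Scap differed by -0.31 ± 0.15 for Luxoid minus stage 1 NKT (0.492), and Insig2 lay between 314 and 412 with overlapping groups.

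Luxoid cells were not told apart from stage 1 NKT cells by any of the 30 members. Of these, 6 had an unadjusted p under 0.05 (Elovl5 and Lss higher and Srebf1, Acss2, Ebp and Nsdhl lower in Luxoid cells), against 1261 of all 10874 tested genes. The 95% intervals reached from -1.16 to 0.92 on the log2 scale, and those of 26 members lay within 1 in either direction, so smaller differences are not excluded.

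**Figure D4:**
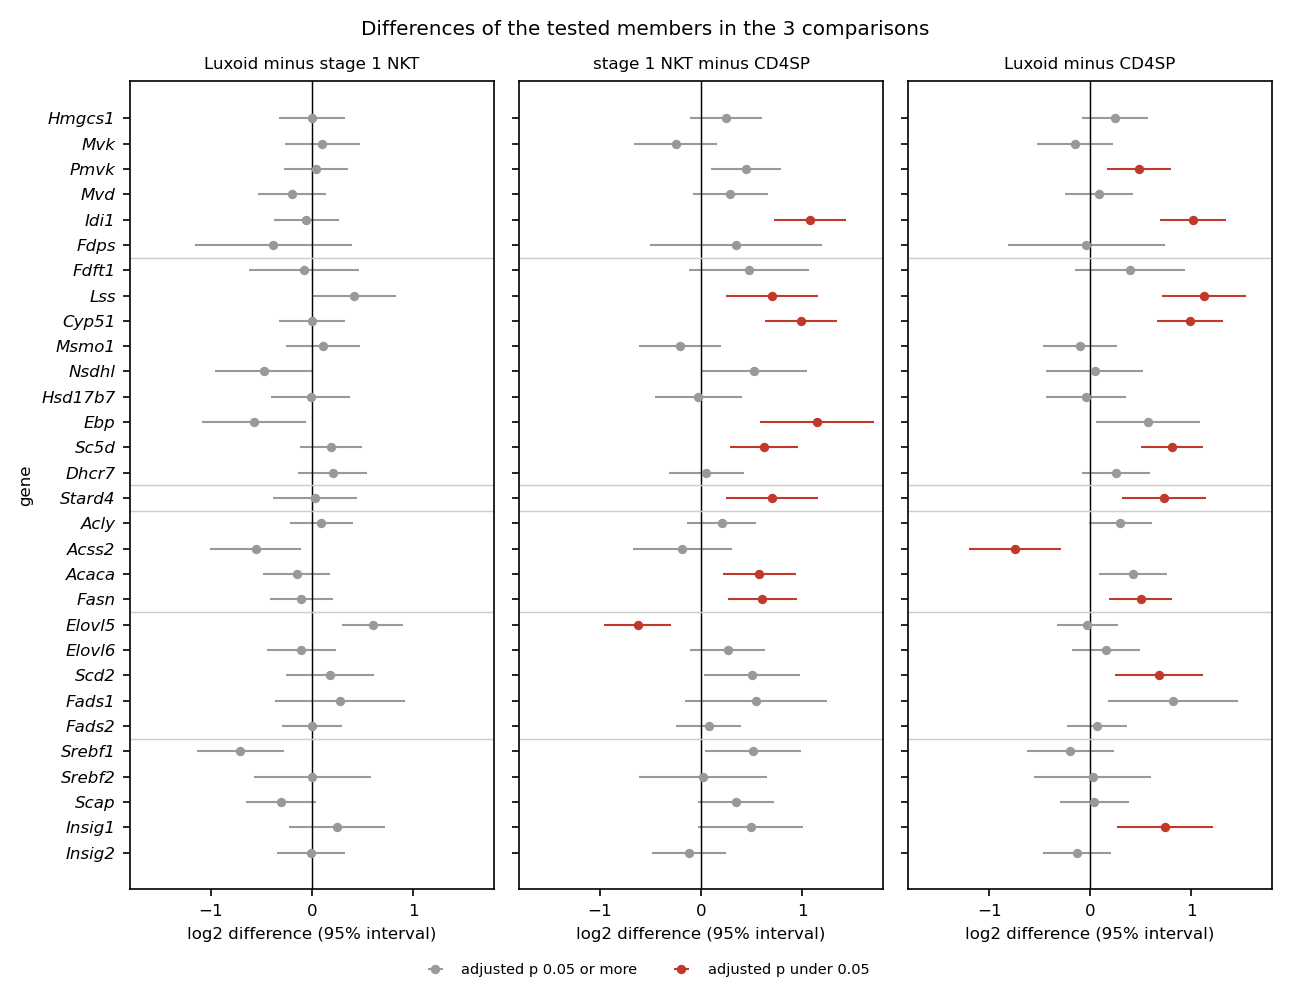
Log2 difference (points) with its 95% interval (bars) for the 30 tested members in the 3 comparisons, with red where the limma adjusted p was under 0.05. No point is red for Luxoid minus stage 1 NKT, and Idi1 and Cyp51 lie near 1 in both comparisons with CD4SP.

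Other genes of these pathways, not among the 34, were read from fixed lists. Of 24 other sterol and isoprenoid genes 16 were tested. In Luxoid relative to stage 1 NKT cells 1 of them fell, Abca1, the cholesterol exporter, with a list median of -0.032. Over all tested genes, 0.653% were lower in that comparison. Abca1 was at 274, 321 and 216 in Luxoid cells, 676 and 761 in stage 1 NKT cells, and 270 and 459 in CD4SP cells, so that stage 1 NKT arrays exceeded all others. Abca1 differed by -1.43 ± 0.25 for Luxoid minus stage 1 NKT (limma adjusted p = 0.0283). Omitting Luxoid array 1 (0.0592) or 3 (0.0931) or stage 1 NKT array 1 (0.189) or 2 (0.330) ended this call, and so did averaging the probe sets of the gene (0.0688). Abca1 rose by 1.03 ± 0.27 in stage 1 NKT relative to CD4SP cells (0.0372). Omitting Luxoid array 1 (0.0507), stage 1 NKT array 1 (0.134) or 2 (0.165) or CD4SP array 1 (0.195) ended that call, as did 3 other settings (0.0529 to 0.144). Npc2, which moves cholesterol out of lysosomes, was at 3857, 3473 and 3382 in Luxoid cells, 3937 and 3848 in stage 1 NKT cells, and 6152 and 5273 in CD4SP cells. It fell by 0.68 in Luxoid cells (0.0118) and by 0.55 in stage 1 NKT cells (0.0444). Omitting CD4SP array 1 ended the Luxoid call (0.0966). Omitting any 1 array other than Luxoid array 2 ended the stage 1 NKT call (0.0519 with Luxoid array 1, 0.0563 with Luxoid array 3, 0.164 and 0.159 with stage 1 NKT array 1 or 2, 0.205 and 0.0862 with CD4SP array 1 or 2), as did 2 other settings (0.0529 and 0.0561). These were the calls of the list, whose medians against CD4SP were 0.032 for stage 1 NKT and 0.080 for Luxoid cells. Against CD4SP, 14.9% and 16.8% of all tested genes passed in these groups.

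Of 26 other fatty acid and glycerolipid genes 21 were tested. None passed between Luxoid and stage 1 NKT cells (limma, 0 at an unadjusted p under 0.05), where 1.55% of all tested genes did. Relative to CD4SP, 5 rose in stage 1 NKT and 4 in Luxoid cells, and none fell. Over all tested genes, 10.8% and 11.3% rose, and 4.08% and 5.51% fell. The list medians were -0.14, 0.26 and 0.14 for Luxoid minus stage 1 NKT, stage 1 NKT minus CD4SP and Luxoid minus CD4SP. Mid1ip1, a protein known to promote the polymerisation of acetyl-CoA carboxylase, was at 369, 368 and 324 in Luxoid cells, 315 and 305 in stage 1 NKT cells, and 42.8 and 64.7 in CD4SP cells. Both CD4SP arrays lay under the intensity of 82, so its level was at least 4.30-fold higher in Luxoid cells (3.52e-05) and at least 3.78-fold higher in stage 1 NKT cells (0.000119). Fabp5, a fatty acid binding protein, was at 1433, 1875 and 2236 in Luxoid cells, 1970 and 2262 in stage 1 NKT cells, and 661 and 1032 in CD4SP cells. It rose by 1.14 (0.0132) in Luxoid and 1.35 (0.0107) in stage 1 NKT cells. Omitting CD4SP array 1 ended the Luxoid call (0.114), and omitting stage 1 NKT array 1 (0.0578) or 2 (0.0794) or CD4SP array 1 (0.0747) ended the stage 1 NKT call. Hsd17b12, a reductase of the elongation cycle, rose by 0.74 in Luxoid cells (0.0362) and by 0.97 in stage 1 NKT cells (0.0191). Gpam, which starts glycerolipid synthesis, rose by 0.59 in Luxoid cells (0.0314). Acsl5, an acyl-CoA synthetase, rose by 0.65 (0.0376) and Hacd2, a dehydratase of the elongation cycle named after its value was seen, by 0.62 (0.0416) in stage 1 NKT cells. Each call of these 4 genes ended with either stage 1 NKT array (0.0548 to 0.228) or either CD4SP array (0.0687 to 0.226) omitted. Omitting Luxoid array 1 ended that of Hsd17b12 in Luxoid cells (0.0882), and omitting Luxoid array 3 ended those of Hsd17b12 (0.0992) and Gpam (0.0766) in Luxoid cells and of Acsl5 in stage 1 NKT cells (0.0545). Other settings ended the calls of Hsd17b12 in Luxoid cells (0.0652 with the 2 groups alone, 0.0657 with a replicate block), of Gpam (0.0554 and 0.0645 in 2 settings) and of Hacd2 (0.0520 to 0.242 in 3 settings).

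Of 15 fatty acid oxidation genes 13 were tested, with list medians of -0.21, 0.27 and 0.11 in the same order of comparisons. Cpt1a, which admits fatty acids to mitochondria, was at 1000, 1271 and 1568 in Luxoid cells, 627 and 529 in stage 1 NKT cells, and 390 and 454 in CD4SP cells. The 3 groups did not overlap, and Luxoid cells were the highest. Cpt1a rose in Luxoid relative to CD4SP cells by 1.58 ± 0.20 (limma adjusted p = 0.00112), in all 16 alternative settings too. It rose relative to stage 1 NKT cells by 1.13 ± 0.20 (0.0326), the 1 call of the list in that comparison, where 1.55% of all tested genes passed. That call ended with Luxoid array 2 (0.0656) or 3 (0.0795), stage 1 NKT array 1 (0.163) or 2 (0.363), or CD4SP array 1 (0.0765) or 2 (0.0769) omitted, in a fit of the 2 groups alone (0.0783) and with a replicate block (0.0577). Acadl, an acyl-CoA dehydrogenase, rose in Luxoid cells by 0.82 (0.011) and in stage 1 NKT cells by 0.78 (0.0227), both relative to CD4SP. Omitting CD4SP array 1 (0.0947) ended the Luxoid call of Acadl, and omitting stage 1 NKT array 1 (0.153) or 2 (0.0674) or CD4SP array 1 (0.134) or 2 (0.0659) ended the stage 1 NKT call. Ppard, a nuclear receptor for fatty acids, fell by 0.51 in Luxoid relative to CD4SP cells (0.0288), a call that no subset of 6 arrays kept except the 1 without Luxoid array 2 (0.0509 to 0.147 in the others), and that 2 other settings ended (0.0515 and 0.335).

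**Figure D5:**
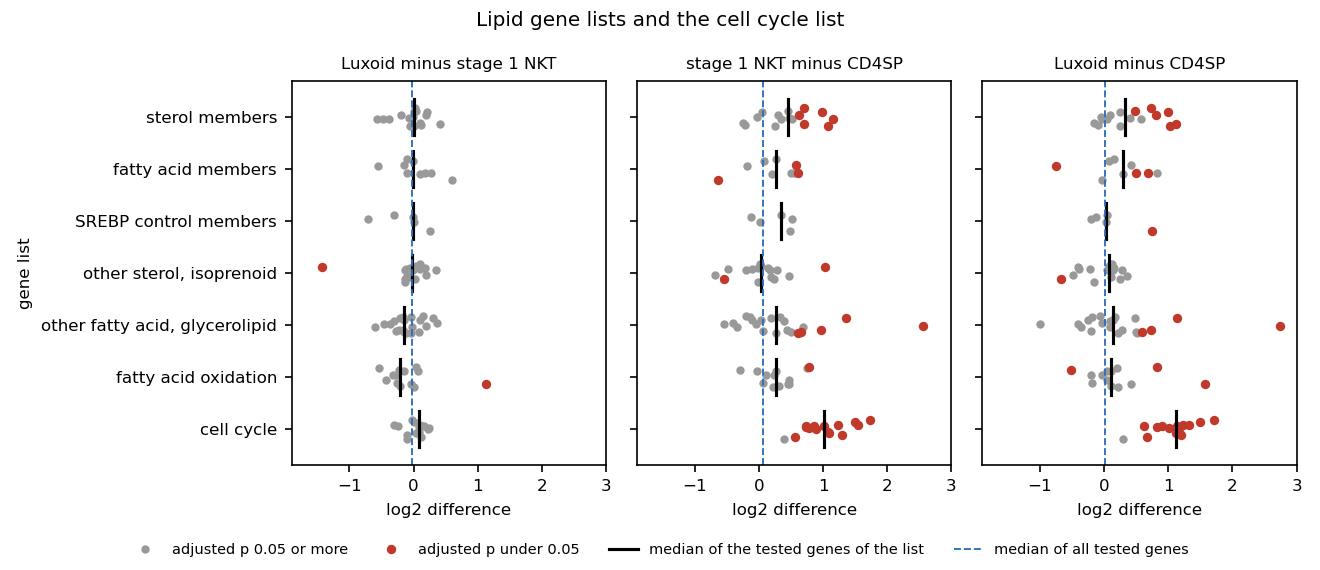
Log2 differences of the tested genes of each list (points, red where the limma adjusted p was under 0.05) with the list median (black bar) and the median of all tested genes (dashed line) in the 3 comparisons. The cell cycle list has the highest medians against CD4SP, 1.02 and 1.12, while the sterol members have medians of 0.46 and 0.33.

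Cell cycle genes were also higher in both NKT groups than in CD4SP cells. Of 15 tested cell cycle genes 14 rose in stage 1 NKT and 14 in Luxoid cells relative to CD4SP, with medians of 1.02 and 1.12. Of all tested genes, 10.8% and 11.3% rose in these comparisons. Cdk1, the mitotic kinase, was at 1036, 528 and 803 in Luxoid cells, 934 and 640 in stage 1 NKT cells, and 279 and 193 in CD4SP cells, with every NKT array above CD4SP. The summed intensity of the 15 genes was 28363 to 33227 in Luxoid, 30313 to 30584 in stage 1 NKT and 17231 to 19498 in CD4SP cells, and its part in the higher sterol genes was not tested. Between Luxoid and stage 1 NKT cells 0 of the 15 passed (limma, 0 at an unadjusted p under 0.05).

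Markers of other cells were read in the same way. The summed intensity of 6 markers of immature CD4 and CD8 positive thymocytes was 384 to 506 in Luxoid, 283 to 295 in stage 1 NKT and 910 to 1033 in CD4SP cells, with 3 of 6 under 82 on all arrays. Its part in the differences against CD4SP was not tested. Of the myeloid or dendritic markers 6 of 7 lay under 82 on all arrays, of the erythroid markers 3 of 3, and of the thymic epithelium markers 4 of 6. Of 5 B cell markers, 2 lay under 82 on all arrays, among them Ms4a1 (CD20) at 14.3 to 17.3, and the list summed to 316 to 428 in Luxoid, 349 to 383 in stage 1 NKT and 310 to 321 in CD4SP cells. Within it Cd79b, a chain of the B cell receptor complex, was higher in both NKT groups than in CD4SP cells. Cd79b was at 161, 211 and 138 in Luxoid cells, 206 and 143 in stage 1 NKT cells, and 66.2 and 43.0 in CD4SP cells, so both CD4SP arrays lay under 82. It was at least 2.04-fold higher in Luxoid (limma adjusted p = 0.00314) and at least 2.09-fold higher in stage 1 NKT cells (0.00548). Its partner Cd79a fell by 0.75 in Luxoid (0.0378) and by 0.82 in stage 1 NKT cells (0.0408), both relative to CD4SP. The part of these markers in the results was not tested. Adipocyte or stroma markers lay under 82 on all arrays in 4 of 6, and their sum was 341 to 402 in Luxoid, 268 in stage 1 NKT and 264 to 279 in CD4SP cells. The 1 of them tested, the collagen gene Col1a1, was at least 1.69-fold higher in Luxoid than in stage 1 NKT cells, where it lay under 82 (0.0152), and 0.58 higher on the log2 scale than in CD4SP cells (0.0321). Adipoq was at 67.0, 72.6 and 118 in Luxoid, 55.2 and 31.5 in stage 1 NKT and 12.3 and 11.9 in CD4SP cells. It reached 82 on 1 array and so was not tested. The adipocyte markers Fabp4 and Lep lay under 82 on all arrays. Handling stress genes summed to 9481 to 10012 in Luxoid, 8050 to 8485 in stage 1 NKT and 9050 to 10001 in CD4SP cells. Of 4 tested, 1 fell in stage 1 NKT relative to CD4SP cells, where 4.08% of all tested genes fell. Dnajb1, at 5204 to 7066, was the largest part of these sums, which hide differences within groups. Jun was at 62.7, 561 and 479 in Luxoid, 111 and 735 in stage 1 NKT and 59.0 and 88.1 in CD4SP cells. Fos was at 108, 140 and 112 in Luxoid, 22.2 and 136 in stage 1 NKT and 88.8 and 84.5 in CD4SP cells. The part of these genes in the results was not tested.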

How the data were processed

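Gene expression was measured on 7 single-colour Affymetrix mouse arrays. The authors deposited 1 intensity per probe set and array, not logged (3.08 to 20875), made with RMA in Affymetrix Expression Console per the submitters' processing notes. No version is given in the sources used here. RMA includes a step that equalises arrays, yet the deposited distributions were not identical (medians 79.6 to 83.7). The number of arrays limits the precision.

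Probe sets were named from the platform annotation. Of 45037 probe sets, 34945 had 1 symbol, 932 several and 9160 were not listed. By gene ID 34741 matched RefSeq GRCm38.p6, which changed 0 symbols. The probe set of highest mean per gene was used. Testing required 82, the 50th percentile of the whole table, on at least 2 arrays, a level that 10874 genes reached. All 30 tested members reached it in at least 1 array of every group.

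After taking log2, 1 limma model (version 3.58.1, R 4.3.3) gave a mean to each group from the 7 arrays together, with 4 residual degrees of freedom and 4.49 from the prior. P-values of each contrast were adjusted over all tested genes by Benjamini-Hochberg at 0.05. ± is the standard error. The fit was tested on simulated data. Promoters came from RefSeq GRCm38.p6.

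The members and lists were chosen with earlier results of these data known. Lists were other sterol, other fatty acid, fatty acid oxidation and cell cycle genes, and markers of T, stage 1 NKT, CD4SP, immature CD4 and CD8 positive, B, myeloid, erythroid, epithelial and stromal cells and of handling stress. Members, markers and other sterol genes could be named, and of the other lists up to 4 calls of largest difference per comparison. Hacd2 was named beyond this rule, after its value was seen. Where the dimmer group lay under 82 on every array, the fold is a bound against 82. Alternatives were other filters, probe set averaging, further normalization, a variance trend, 2-group fits, the replicate number as a block, a Y-linked covariate and each array left out.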

Additional observations from a re-analysis of the deposited data

How the results depend on the processing

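Precision was limited by 2 or 3 arrays per group; a group left with 1 array was assumed to vary like the others. Between Luxoid and stage 1 NKT cells 169 genes passed (49 to 176 with 1 array left out), and 0 members did, except 1 (Elovl5, higher) with the variance trend. Between stage 1 NKT and CD4SP cells 1621 genes passed (635 to 1848 with 1 array left out, 2616 with the replicate block). The 9 members became 5 with quantile normalization once more and 2 to 9 with 1 array left out. The 8 higher members became 5 with no filter, 4 with that normalization and 2 to 8 with 1 array left out, and the 1 lower became 0 to 1. Without either stage 1 NKT array or CD4SP array 2, 2 members passed, and Idi1 and Cyp51 were among those called in every setting. Between Luxoid and CD4SP cells 1831 genes passed (839 to 1737 with 1 array left out). The 10 members became 5 in a fit of the 2 groups alone and 4 to 8 with 1 array left out. The 9 higher became 5 in that fit and 4 to 7 with 1 array left out, and the 1 lower became 0 in that fit, 0 with the mean of probe sets and 0 to 1 with 1 array left out. Only 2 replicate numbers were shared by all groups. Deviations of same-numbered arrays from their group mean correlated at 0.334 to 0.491 over 6 pairs. These pairs are not independent, because in a group of 2 arrays the 2 deviations mirror each other. Stage 1 NKT and CD4SP cells therefore gave 0.431 for both replicate numbers. Array 1 had the lowest Kdm5d in every group. A shared batch was not tested beyond this, and since the labels name none and each comparison has only 2 pairs, the fit without a block was kept. With the replicate block, in which Luxoid array 3 has no partner and adds nothing to the contrasts, 0, 9 and 10 members passed. With the Y-linked covariate 0, 9 and 13 did. Of the 90 member differences, 30 changed sign in some setting, and none of these was called in any setting. In 26 the difference was within 1 standard error of 0. The others were Msmo1 for stage 1 NKT minus CD4SP (0.10 with the mean of probe sets), Sc5d for Luxoid minus stage 1 NKT (-0.021 with that mean), Scap for Luxoid minus stage 1 NKT (0.21 with that mean) and Elovl6 for Luxoid minus CD4SP (-0.20 with that mean and -0.017 to 0.33 with 1 CD4SP array left out). The cause of these changes was not tested. Further normalization moved the median of all genes by at most 0.062 in size.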
